A study of Mus musculus with 8 samples.

Results

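Heme synthesis and iron uptake genes were followed in mouse brown adipose tissue (BAT) as 9 genes chosen by name: *Alas1*, *Alad*, *Uros*, *Urod*, *Cpox*, *Ppox* and *Fech*, which encode enzymes that build heme, *Hmox1*, whose enzyme breaks heme down, and *Tfrc*, the transferrin receptor through which cells take up iron. The rule used names and no measured value, although the names were proposed with earlier results of these data known. All 9 were found among the 49452 genes of the table. All are protein-coding. The study sequenced the RNA of BAT from male C57BL/6 mice in 4 groups of 2 libraries each. The temperature groups were kept at 22 °C (replicates 4 and 7) or at 4 °C, for 24 h according to the labels (replicates 2 and 11). The diet groups received normal chow (NCD, replicates 6 and 8) or a high-fat diet (HFD, replicates 2 and 6). It asked which transcripts follow BAT function in the cold and in diet-induced obesity. By the methods, the mice of the 22 °C and 4 °C groups were 10 to 12 weeks old, and the cold challenge lasted 20 h followed by 4 h of fasting. Whether the mice at 22 °C were fasted as well is not clear from the text. The mice of the diet groups were 32 weeks old and had spent 28 weeks on a diet with 54 kJ% fat (HFD) or 11 kJ% fat (the control food, which the labels call normal chow). The labels name no transgene or deletion for any group, and the temperature and diet comparisons share no control group.

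Heme is an iron-containing ring that carries electrons in the cytochromes of the respiratory chain, and BAT, which is packed with mitochondria, uses much of it. Its synthesis starts and ends in mitochondria and passes through the cytosol in between. ALAS1 makes the precursor that sets the pace of the pathway in most tissues, ALAD, UROS and UROD assemble and trim the ring, CPOX and PPOX oxidise it, and FECH inserts the iron. HMOX1 opens the ring again and sets the iron free, and is known as a gene that is switched on by heme, oxidative stress and NRF2. TFRC brings in iron bound to transferrin, and its mRNA is known to be stabilised when cells are short of iron.

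The mRNA of *Tfrc* carries in its 3′ UTR the hairpins that iron regulatory proteins bind, and these are shown because they are a known iron-sensing element of this mRNA. A search of GENCODE M21 transcripts for a bulged C, a stem of 5 base pairs (G-U pairs allowed) and a loop of 6 bases beginning CAGTG found 4 such hairpins in *Tfrc* and none in *Alas1*, *Alad*, *Uros*, *Urod*, *Cpox*, *Ppox* and *Hmox1*. *Fech* was left out of this description of sequences, as were hairpins at an exon junction. Of 21901 protein-coding genes, 294 (1.34%) held at least 1, counted without these exclusions. The capitals mark the loop, and positions are those of GRCm38.

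Tfrc, chr16:32631222-32631244, plus strand: tatcggaagCAGTGCcttccata
Tfrc, chr16:32631601-32631623, plus strand: tatcgggagCAGTGTcttccata
Tfrc, chr16:32631666-32631688, plus strand: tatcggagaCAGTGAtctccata
Tfrc, chr16:32631713-32631735, plus strand: tatcgggaaCAGTGTttcccata

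The same search found the hairpin in the 5′ UTR of the ferritin genes *Fth1* and *Ftl1*, whose proteins store iron, and of *Slc40a1*, the iron exporter, where it is known to hold back translation when iron is scarce. These are shown for comparison with *Tfrc*. Of the other list genes it also found *Alas2* (5′ UTR), *Bola3* and *Ptgs1* (both 3′ UTR), so that it was listed for 7 genes of the 9 and the lists. List genes on the chromosome of *Fech*, such as *Hspa9* and *Cyb5a*, were left out as well, so that 7 may be an undercount.

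Fth1, chr19:9982735-9982757, plus strand: ctgcttcaaCAGTGCttgaacgg
Ftl1, chr7:45459782-45459804, minus strand: ttgcttcaaCAGTGTttgaacgg
Slc40a1, chr1:45925468-45925490, minus strand: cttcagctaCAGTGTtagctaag

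A match of letters and pairs is a description of the sequence and no measurement of binding. RefSeq promoter windows of GRCm38.p6 (250 bases before to 50 after a transcript start) were at hand for 7 of the 9 genes in 11 windows. The letters GCGCNTGCGC, read on both strands and known as the site of nuclear respiratory factor 1, a factor of mitochondrial genes, stood in 4.6% of 32851 windows of this length. Among the 7 genes they stood in *Alas1* and *Uros*. The *Alas1* window shown here held them 2 times, beginning 224 and 195 bases before its start, and the same 2 matches also lay in the other *Alas1* window, whose start lies upstream. The *Uros* window held them 1 time, beginning 47 bases before the start. Capitals mark these letters.

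Alas1, chr9:106247681-106247980, minus strand: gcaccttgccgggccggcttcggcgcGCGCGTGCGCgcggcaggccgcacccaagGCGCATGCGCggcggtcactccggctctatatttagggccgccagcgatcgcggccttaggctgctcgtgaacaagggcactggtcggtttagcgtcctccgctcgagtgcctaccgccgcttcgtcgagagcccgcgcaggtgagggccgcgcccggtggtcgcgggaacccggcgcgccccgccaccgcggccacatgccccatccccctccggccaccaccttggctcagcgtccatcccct
Uros, chr7:133709246-133709545, minus strand: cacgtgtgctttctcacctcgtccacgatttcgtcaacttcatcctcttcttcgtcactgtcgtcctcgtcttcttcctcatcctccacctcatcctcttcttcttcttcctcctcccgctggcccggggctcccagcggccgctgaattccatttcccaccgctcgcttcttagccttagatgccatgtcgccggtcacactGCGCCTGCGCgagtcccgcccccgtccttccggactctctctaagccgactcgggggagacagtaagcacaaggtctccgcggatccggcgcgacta

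The E-box CACGTG, a palindrome, stood in 7.15% of all windows and in those of *Alad*, *Urod* and *Uros*. The shorter core ACGTG, which lies within CACGTG and is part of the hypoxia response element, stood in 19.6% of all windows and in those of *Alad*, *Cpox*, *Tfrc*, *Urod* and *Uros*. The antioxidant core TGACNNNGC (12.4% of all windows) stood in none of the 11, and *Hmox1* was not among the genes with a window. The window of *Urod* is shown with its E-box, 49 bases before the start, in capitals.

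Urod, chr4:116994364-116994663, minus strand: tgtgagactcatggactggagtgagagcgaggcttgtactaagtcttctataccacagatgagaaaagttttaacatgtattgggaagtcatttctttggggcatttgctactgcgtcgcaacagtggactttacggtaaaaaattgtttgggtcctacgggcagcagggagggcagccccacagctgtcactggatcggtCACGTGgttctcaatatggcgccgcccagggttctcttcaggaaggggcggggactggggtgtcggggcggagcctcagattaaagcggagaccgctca

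Expression was measured as FPKM, the count of fragments scaled to transcript length and library size, so that levels of different genes can be set side by side. Every group had 1 library, namely 22 °C replicate 4, 4 °C replicate 11, NCD replicate 8 and HFD replicate 2, in which the satellite-repeat gene *Gm10800* exceeded 100 FPKM, and these are called satellite-high here. The other 4 are called satellite-low. *Alad*, *Uros*, *Urod* and *Ppox* were lower in the satellite-high library in 4 of 4 groups, and the other 5 genes in 3 of 4. Genes of the X and Y chromosomes are listed at 0 in both 22 °C libraries and in NCD replicate 6. In the same 3 libraries 0 or 1 of 37 mitochondrial genes is above 0, against 15 in each of the other 5, so that an exact 0 may be a missing estimate. All 9 genes are autosomal. For the 22 °C group these zeros and the temperature cannot be told apart. The sum over autosomal protein-coding genes was 191698 and 193847 FPKM at 22 °C and 288498 and 236391 FPKM at 4 °C. The description strings of the labels begin with 1 prefix for the temperature libraries and NCD replicate 6 and with another for NCD replicate 8 and both HFD libraries, and what the prefix stands for is not stated.

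*Ucp1*, the uncoupling protein that defines brown adipocytes, was at 699 to 6462 FPKM in the 8 libraries, and all 12 brown adipocyte markers were above 0.1 FPKM in all of them. Of these, *Ppargc1a*, *Dio2* and *Elovl3* passed the test in the cold and the other 9 did not, beside 1.44% of all genes that passed. *Ucp1* was among the 9 (log2 change 2.56, adjusted p = 0.0646, limma). In both 4 °C libraries 8 of the 12 were higher and 2, *Prdm16* and *Adipoq*, lower, against 37.9% and 20.6% of all genes. Markers of other cells were present too. The 12 skeletal muscle markers found summed, in the order of replicates given above, to 636 and 153 FPKM at 22 °C, 4910 and 2170 FPKM at 4 °C, 652 and 1680 FPKM on NCD and 221 and 41.0 FPKM on HFD. All 12 were higher in both 4 °C libraries (median log2 change 3.34) and 11 of 12 lower in both HFD libraries (median -3.71), and none passed the test (limma). Over the whole set of tested genes these shares were 37.9% and 5.8%. In the same order, the 12 macrophage markers summed to 98.8 and 71.8 FPKM at 22 °C, 168 and 82.8 FPKM at 4 °C, 146 and 54.8 FPKM on NCD and 295 and 342 FPKM on HFD. Of the 12 erythroid markers found, 3 to 7 were under 0.1 FPKM per library, *Klf1* among them in 7 of the 8, and the sums of 64.8 to 1260 FPKM were mostly globin mRNA. In bulk tissue fewer cells of a type and less RNA per cell cannot be told apart.

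**Figure D1:**
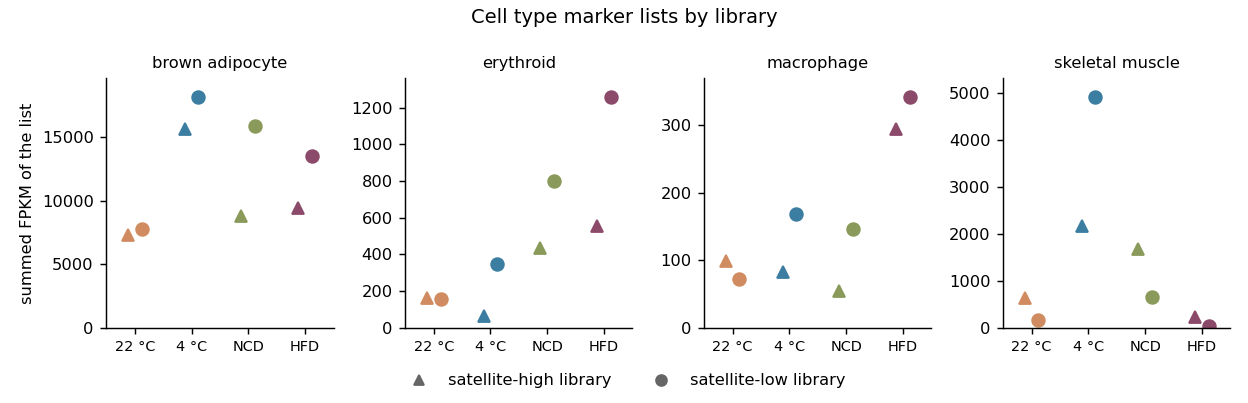
Summed FPKM of 4 cell type marker lists (vertical axis, linear from 0) in each library, by group; triangles are satellite-high and circles satellite-low libraries. Macrophage sums are highest in both HFD libraries (295 and 342 FPKM) and muscle sums are highest at 4 °C (4910 and 2170 FPKM).

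*Alas1* was the most abundant of the 9 genes in each of the 8 libraries, with a mean of 185 FPKM and a range of 66.6 to 268 FPKM. Its lowest library lay above the highest library of every other member. *Urod* followed with a mean of 26.9 FPKM, *Fech* with 20.3 FPKM and *Alad* with 17.5 FPKM, and the ranges of these neighbours overlapped. *Hmox1* (mean 12.4 FPKM), *Tfrc* (12 FPKM), *Uros* (9.69 FPKM) and *Ppox* (6.07 FPKM) came next, each overlapping with the gene before it. *Cpox* was lowest, with a mean of 1.86 FPKM and a range below that of *Ppox*, and was last in 6 of the 8 libraries. In both 22 °C libraries *Hmox1* was last instead.

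The genes differed in how far they ranged over the 8 libraries. *Hmox1* spanned a factor of 30.2 between its lowest and highest library, *Tfrc* 7.03 and *Alas1* 4.03. The other 6 genes, all enzymes of the pathway after ALAS1, spanned factors of 1.76 (*Alad*) to 2.35 (*Uros*). The plot of FPKM by library shows every value.

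**Figure D2:**
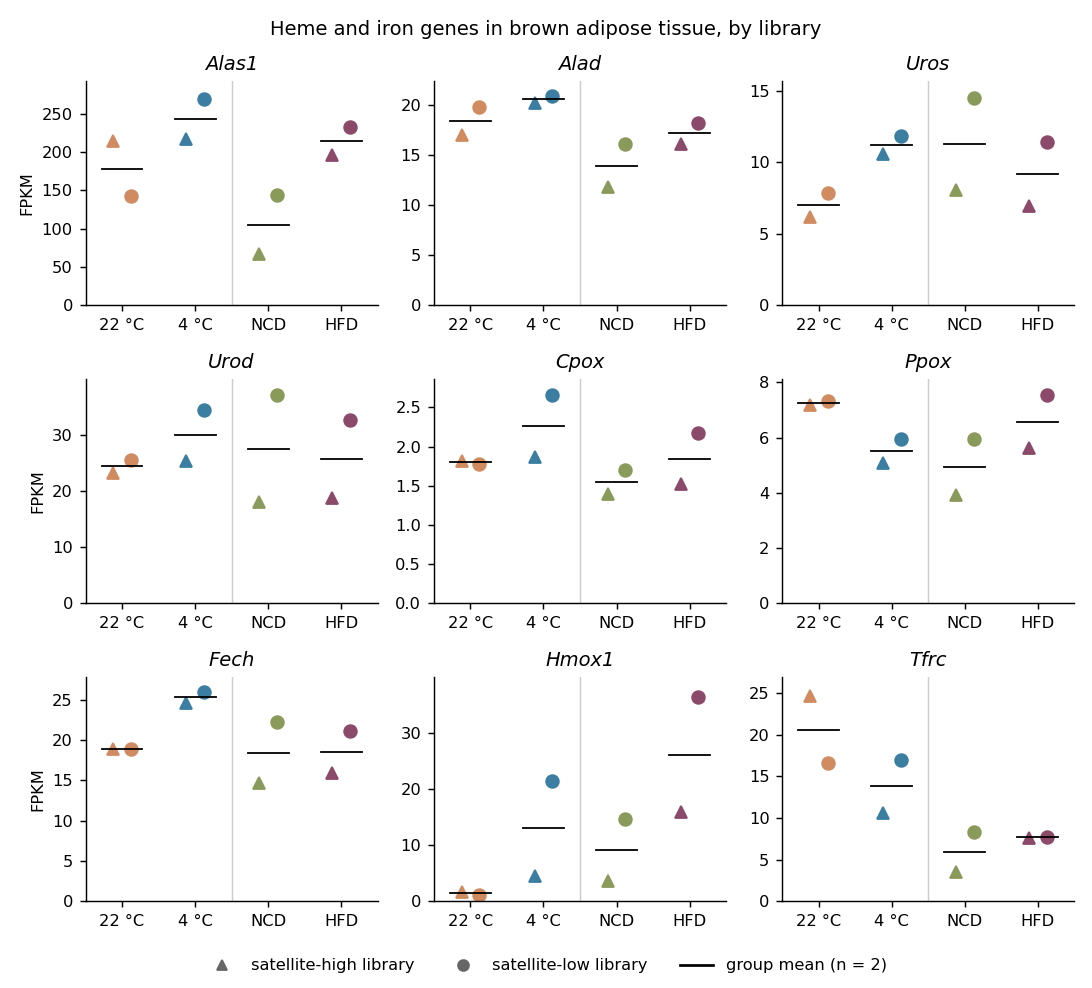
FPKM of the 9 genes in each library (vertical axis, from 0, 1 panel per gene) by group (horizontal axis); triangles are satellite-high and circles satellite-low libraries, and the line is the mean of the 2 libraries. Hmox1 is at 1.63 and 1.2 FPKM at 22 °C and higher in all other libraries, while Alad and Fech range little.

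The first comparison asked how the genes stood after cold exposure. With limma on log2(FPKM + 1), where a gene was past threshold at a Benjamini-Hochberg adjusted p under 0.05 over all genes and a log2 change of at least 1, none of the 9 genes passed, against 252 of 17470 genes tested (1.44%). Unadjusted p-values were under 0.05 for 2 of the 9, *Uros* and *Hmox1*, and for 24.5% of all genes tested. In 6 of the 9 genes (*Alas1*, *Alad*, *Uros*, *Cpox*, *Fech* and *Hmox1*) the 22 °C pair was exceeded by the entire 4 °C pair, which held for 37.9% of all genes, and in *Ppox* both lay below, which held for 20.6%. The median log2 change of the 9 genes was 0.27, beside 0.21 for the 9921 autosomal mRNA genes averaging 1 FPKM or more. Rescaling the libraries moved that mRNA median to between -0.12 and -0.05, and the median of the 9 genes to between -0.10 and 0.01, so that 6, 4 or 5 of the 9 lay above the mRNA median, by the scaling, against 6 as deposited.

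*Alas1* (aminolevulinate synthase 1, ENSMUSG00000032786, chr9:106233455-106248654) was at 214 and 143 FPKM at 22 °C and at 268 and 218 FPKM at 4 °C. The groups did not overlap, but 22 °C replicate 4 lay close to the lower 4 °C library. The log2 change was 0.47 with a 95% interval of -0.34 to 1.27 (adjusted p = 0.418, limma), and it was -0.10 after quantile normalization. It was 0.208 after median centring and 0.055 after rescaling to the sum of autosomal protein-coding genes without *Ucp1*. Without 22 °C replicate 4 it was 0.756 and without 22 °C replicate 7 it was 0.175. Within satellite-high libraries the ratio of 4 °C to 22 °C was 1.02, and within satellite-low libraries 1.88.

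Of the cytosolic enzymes, *Uros* (uroporphyrinogen III synthase, ENSMUSG00000030979, chr7:133686243-133710072) showed the clearest separation. It was at 6.17 and 7.86 FPKM at 22 °C and at 11.8 and 10.6 FPKM at 4 °C. Its log2 change of 0.62 had an interval of 0.10 to 1.13 and did not pass after adjustment (adjusted p = 0.152, limma). The ratio was 1.72 within satellite-high and 1.51 within satellite-low libraries, and the log2 change stayed above 0 under all alternatives tried (0.25 to 1.37). *Uros* lies partly across *Bccip*, a protein-coding gene on the other strand with a mean of 9.19 FPKM. The libraries were directional, but whether strand was used in counting is not given in the sources used here.

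*Alad* (aminolevulinate dehydratase, ENSMUSG00000028393, chr4:62509169-62519918) was at 17.0 and 19.8 FPKM at 22 °C and at 20.9 and 20.2 FPKM at 4 °C, a log2 change of 0.15 (95% interval -0.34 to 0.65). *Urod* (uroporphyrinogen decarboxylase, ENSMUSG00000028684, chr4:116989965-116994413) was at 23.3 and 25.6 FPKM against 34.5 and 25.4 FPKM, and 4 °C replicate 11 lay between the 22 °C libraries. Its log2 change was 0.27 (95% interval -0.32 to 0.86), so that the intervals of both genes lay inside the minimum change of 1 in either direction. After median centring, quantile normalization and rescaling the change of *Alad* was -0.103, -0.27 and -0.238. That of *Urod* was 0.01, -0.186 and -0.131.

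The last enzymes act in or at mitochondria. *Fech* (ferrochelatase, ENSMUSG00000024588) was at 18.9 FPKM in both 22 °C libraries and at 25.9 and 24.6 FPKM at 4 °C. Its log2 change was 0.40 (95% interval -0.08 to 0.87, adjusted p = 0.261, limma), with ratios of 1.3 and 1.37 within the library types. After median centring, quantile normalization and rescaling the log2 change of *Fech* was 0.141, -0.026 and 0.004. *Cpox* (coproporphyrinogen oxidase, ENSMUSG00000022742, chr16:58670208-58680391) was at 1.82 and 1.78 FPKM against 2.66 and 1.86 FPKM, so that most of its difference came from 4 °C replicate 2 (log2 change 0.21, 95% interval -0.27 to 0.69). Under the same scalings, in that order, the log2 change of *Cpox* was -0.048, 0.076 and -0.069. *Ppox* (protoporphyrinogen oxidase, ENSMUSG00000062729, chr1:171275990-171281186) was lower in both 4 °C libraries, at 5.94 and 5.08 FPKM against 7.20 and 7.33 FPKM at 22 °C. Its log2 change was -0.35 (95% interval -0.81 to 0.11, adjusted p = 0.302, limma). When the libraries were rescaled to the sum of autosomal protein-coding genes without *Ucp1*, *Ppox* had a log2 change of -0.70 with an adjusted p of 0.0476 (limma, 0.0476 to 0.988 over all alternatives), short of the minimum change. *Ppox* lies partly across *B4galt3* on the other strand, which had a mean of 3.44 FPKM.

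*Hmox1* (heme oxygenase 1, ENSMUSG00000005413, chr8:75093621-75100589) had the largest difference of the 9 genes. It was at 1.63 and 1.2 FPKM at 22 °C and at 21.4 and 4.60 FPKM at 4 °C. Both 4 °C libraries were higher, and they also differed from each other more than the 22 °C libraries did. The log2 change on the log2(FPKM + 1) scale was 2.22 ± 0.64 (SE, n = 2 against 2), with an interval of 0.61 to 3.83 and an adjusted p of 0.12 (limma), short of the threshold. The FPKM ratio was 2.82 within satellite-high and 17.8 within satellite-low libraries. The call depended on the libraries in the fit: *Hmox1* passed without 22 °C replicate 4 (log2 change 2.35, adjusted p = 0.0111), without 22 °C replicate 7 (2.09, adjusted p = 0.00214) and without 4 °C replicate 11 (3.22, adjusted p = 0.0455), and not without 4 °C replicate 2 (1.22, adjusted p = 0.122), all by limma with a lone library taken to vary like the other group. With the library type as a covariate it did not pass in the 4 libraries (2.22, adjusted p = 0.0579) and passed in a fit of all 8, an alternative added after the data were seen (2.22, adjusted p = 0.0383, both limma). Over all alternatives the log2 change was 1.09 to 3.35 and the adjusted p 0.00214 to 0.613. The macrophage sum was 168 FPKM and the erythroid sum 349 FPKM in 4 °C replicate 2, where *Hmox1* was at 21.4 FPKM, against 82.8 and 64.8 FPKM in 4 °C replicate 11, where it was at 4.60 FPKM. At 22 °C the sums were 98.8 and 164 FPKM in replicate 4 (*Hmox1* at 1.63 FPKM) and 71.8 and 157 FPKM in replicate 7 (*Hmox1* at 1.2 FPKM). The part of these cells in the level of *Hmox1* was not tested. With the muscle marker score as a covariate the log2 change was 2.90 (adjusted p = 0.336, limma).

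*Tfrc* (transferrin receptor, ENSMUSG00000022797, chr16:32608920-32632794) was at 24.6 and 16.6 FPKM at 22 °C and at 17.0 and 10.6 FPKM at 4 °C. The groups overlapped, since 4 °C replicate 2 was above 22 °C replicate 7. The log2 change was -0.56 (95% interval -1.35 to 0.24, adjusted p = 0.334, limma). Within satellite-high libraries the ratio was 0.429 and within satellite-low libraries 1.03, so that the difference rested on the satellite-high pair.

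**Figure D3:**
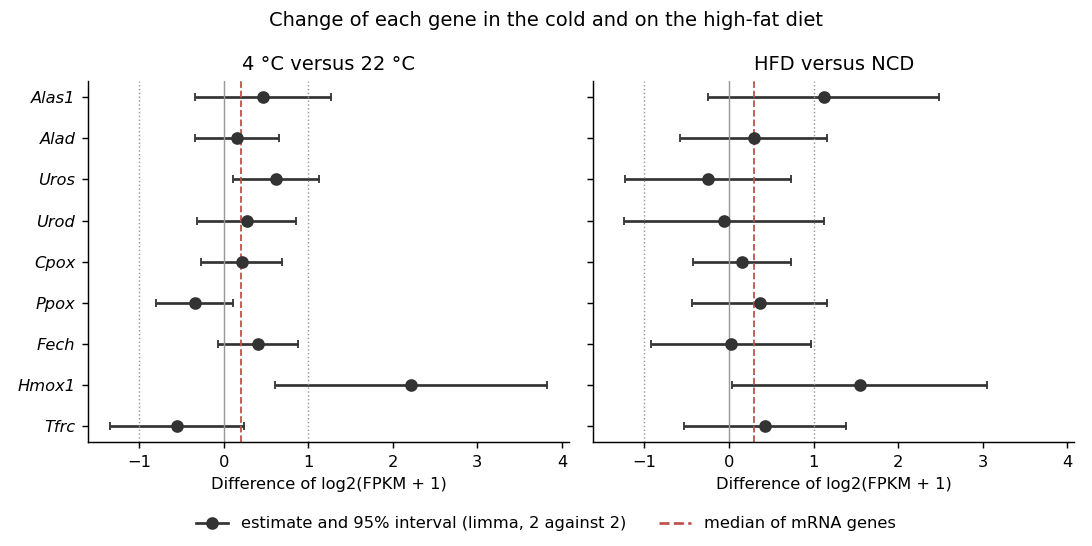
Difference of log2(FPKM + 1) for each gene (horizontal axis) with its 95% interval from limma, 2 libraries against 2, for 4 °C versus 22 °C (left) and HFD versus NCD (right); dotted lines mark the minimum change of 1 and the dashed line the median of mRNA genes (0.21 and 0.29). Hmox1 lies farthest to the right in both panels and its interval does not reach 0 in either.

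The second comparison asked how the genes stood after long feeding of a HFD. None of the 9 genes passed the threshold by limma, against 12 of 17535 genes (0.0684%), and 1 of the 9, *Hmox1*, had an unadjusted p under 0.05, against 14.4% of all genes. In *Alas1*, *Alad* and *Hmox1* both HFD libraries lay above both NCD libraries, which held for 39.9% of all genes. In none of the 9 did both lie below, which held for 5.8% of all genes. The median log2 change of the 9 genes was 0.29, and that of 9920 mRNA genes was 0.29 as well. Under the other scalings the mRNA median was -0.07 to 0.16 and the median of the 9 genes -0.06 to 0.14.

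*Alas1* was at 144 and 66.6 FPKM on NCD and at 196 and 233 FPKM on HFD. Both HFD libraries were higher. The log2 change was 1.12 ± 0.59 (SE, n = 2 against 2) with an interval of -0.25 to 2.49 and an adjusted p of 0.442 (limma). The ratio was 2.95 within satellite-high and 1.62 within satellite-low libraries. With the library type as a covariate the adjusted p was 0.0354 in the 4 libraries and 0.128 in the added fit of all 8 (limma), and over all alternatives tried it ranged from 0.0354 to 1, with log2 changes of 0.57 to 1.67. Of the 7 synthesis enzymes, *Alas1* and *Alad* were those whose diet groups did not overlap. *Alad* was at 16.1 and 11.8 FPKM on NCD and at 16.1 and 18.2 FPKM on HFD, with the lower HFD library barely above the higher NCD library. The ratio of *Alas1* to *Alad* was 8.93 and 5.63 on NCD and 12.2 and 12.8 on HFD. In the temperature libraries it was 12.6 and 7.21 at 22 °C and 12.9 and 10.8 at 4 °C, with overlapping groups.

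In *Uros*, *Urod* and *Fech* the diet groups overlapped. *Uros* was at 14.5 and 8.09 FPKM on NCD and at 6.98 and 11.4 FPKM on HFD, and *Urod* at 37.1 and 18.0 FPKM against 18.8 and 32.8 FPKM. In *Uros*, *Urod*, *Fech*, *Cpox* and *Ppox*, both satellite-low diet libraries lay above both satellite-high diet libraries, whatever the diet. Within the types the HFD to NCD ratio of *Uros* was 0.863 in satellite-high and 0.787 in satellite-low libraries, and that of *Urod* lay on both sides of 1. *Fech* was at 22.3 and 14.6 FPKM against 15.9 and 21.1 FPKM, a log2 change of 0.02 with an interval of -0.93 to 0.97. *Cpox* had a log2 change of 0.15 (95% interval -0.43 to 0.73). *Ppox* was at 5.94 and 3.91 FPKM on NCD and at 5.61 and 7.55 FPKM on HFD, with overlapping groups. Its log2 change was 0.37 (95% interval -0.44 to 1.17), and it was 0.12 without NCD replicate 8, 0.61 without NCD replicate 6, 0.55 without HFD replicate 2 and 0.18 without HFD replicate 6. The intervals of *Uros* (-1.24 to 0.73), *Urod* (-1.24 to 1.12), *Alad* (-0.57 to 1.16) and *Ppox* reached past the minimum change of 1, so that the lack of a call does not show equal levels.

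*Hmox1* was at 14.7 and 3.69 FPKM on NCD and at 15.8 and 36.3 FPKM on HFD. Both HFD libraries were higher, although the lower HFD library lay close to the higher NCD library. The log2 change was 1.55 ± 0.64 (SE, n = 2 against 2), with an interval of 0.04 to 3.05 and an adjusted p of 0.336 (limma). Within satellite-high libraries the ratio was 4.29 and within satellite-low libraries 2.47. *Hmox1* passed with the library type as a covariate in the 4 libraries (log2 change 1.55, adjusted p = 0.00786), not with it in the added fit of all 8 (1.55, adjusted p = 0.0983). It passed without NCD replicate 6 (2.42, adjusted p = 0.000308), and not without NCD replicate 8 (0.68, adjusted p = 0.662), without HFD replicate 2 (2.12, adjusted p = 0.126) or without HFD replicate 6 (0.97, adjusted p = 1), all by limma. Over all alternatives the adjusted p was 0.000308 to 1. The setting without NCD replicate 6 leaves NCD replicate 8 as the only control library. That library is satellite-high and had the lowest *Hmox1* level of the diet libraries (3.69 FPKM). The remaining diet libraries also share a label prefix, whose meaning is not stated. What the change of the call rests on was not tested. Of 11 macrophage markers tested, 10 were higher in both HFD libraries, against 39.9% of all genes, and none passed (limma), with a median log2 change of 1.57. The erythroid sum was 802 FPKM in NCD replicate 6 and 433 FPKM in NCD replicate 8, and 557 FPKM in HFD replicate 2 and 1260 FPKM in HFD replicate 6. The part of these cells in the level of *Hmox1* was not tested. With the muscle marker score as a covariate the log2 change of *Hmox1* was 0.84 (adjusted p = 0.854, limma).

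*Tfrc* was at 8.29 and 3.5 FPKM on NCD and at 7.63 and 7.72 FPKM on HFD. The HFD libraries lay between the NCD libraries, and the log2 change was 0.42 (95% interval -0.54 to 1.39, adjusted p = 0.688, limma). *Tfrc* was the only member whose levels in the 4 temperature libraries (10.6 to 24.6 FPKM) did not overlap with those in the 4 diet libraries (3.5 to 8.29 FPKM). Of 9923 autosomal mRNA genes averaging 1 FPKM or more, 535 (5.39%) did not overlap in this way. The experiments differed in the age of the mice, in feeding and in the label prefix for 3 of the 4 diet libraries, and these cannot be told apart.

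**Figure D4:**
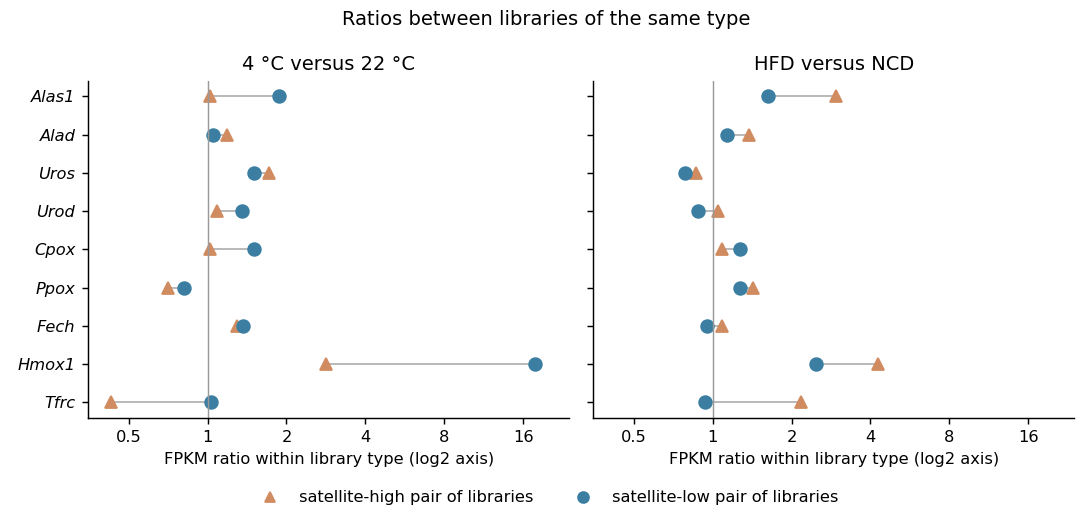
Ratio of FPKM between groups within each library type (horizontal axis, log2 scale) for 4 °C over 22 °C (left) and HFD over NCD (right); each point is 1 library over 1 library, triangles for satellite-high and circles for satellite-low pairs. Hmox1 is above 1 in all 4 pairs (2.47 to 17.8), while Tfrc is on both sides of 1 in each comparison.

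Whether the cold and the diet differences were unequal was tested as the difference of the changes in 1 fit of all 8 libraries. None of the 9 genes passed by limma and none had an unadjusted p under 0.05, against 196 of 18894 genes past threshold (1.04%), and adjusted p-values ran from 0.336 to 0.95. The estimates with the lowest p were those of *Ppox* (-0.71, 95% interval -1.53 to 0.11), *Uros* (0.87, 95% interval -0.23 to 1.97) and *Tfrc* (-0.98, 95% interval -2.29 to 0.34). After rescaling to the sum of autosomal protein-coding genes without *Ucp1*, *Ppox* had a difference of -0.93 with an adjusted p of 0.0374 (limma, 0.0374 to 0.62 over all alternatives), short of the minimum change. For *Hmox1* the difference was 0.67 with an interval of -1.89 to 3.23, too wide to order the changes.

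The members were also compared with each other over the 8 libraries. Of 36 pairs, 33 had a Pearson r of log2(FPKM + 1) above 0, with a median of 0.52. These coefficients are descriptions, since the libraries share group, satellite type and scale. The highest were those of *Uros* with *Urod* (r = 0.83), *Urod* with *Fech* (0.83), *Alas1* with *Alad* (0.83) and *Cpox* with *Fech* (0.81). The lowest was that of *Hmox1* with *Tfrc* (-0.31). Among 9922 other autosomal mRNA genes, those with the pattern most like *Alas1* were *Eif4a3* (r = 0.98), *Pdap1* (0.97), *Ap2m1* (0.97), *Inka1* (0.97) and *Igfbp7* (0.97), and 115 genes exceeded 0.9. Those most like *Hmox1* were *Nrbf2* (0.98), *Pggt1b* (0.98), *Tnpo1* (0.98), *Tm9sf1* (0.98) and *Cd36* (0.98), and 250 genes exceeded 0.9. Those most like *Tfrc* were *Car3* (0.96), *Gm20683* (0.95), *Zfp408* (0.95), *Ces1f* (0.95) and *Bag4* (0.94), and 36 genes exceeded 0.9. With 8 libraries such values say nothing of shared function.

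Other genes were taken from 7 lists of 100 genes in all, 5 of heme and iron metabolism and the others of the NRF2 and metal response and of the hypoxia response, of which 98 were found and 88 tested in each comparison. In the cold 3 of 88 passed by limma, all higher at 4 °C, against 1.44% of all genes, and 38 had an unadjusted p under 0.05, against 24.5% of all genes. Of the 88, 50 were higher in both 4 °C libraries and 10 lower in both, and the median log2 change was 0.38. On HFD none of 88 passed (16 had an unadjusted p under 0.05, against 14.4% of all genes), 29 were higher in both libraries and 6 lower in both, and the median was 0.15. With the library type as a covariate 9 passed on HFD in the 4 libraries, beside 744 of all genes (limma). In the fit of all 8 libraries with that covariate 4 passed on HFD, beside 439 of all genes (limma). The medians of all mRNA genes were 0.21 and 0.29, and the shares of all genes higher or lower in both libraries are those given above. *Abcb10* and *Cyba* were not analysed here, and genes on the X chromosome, such as *Alas2*, *Heph*, *Hccs* and *Cybb*, were not tested.

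In the remainder of heme synthesis, 0 of 5 tested genes passed in either comparison (2 and 0 at an unadjusted p under 0.05, against 24.5% and 14.4% of all genes). In the cold 4 of the 5 were higher in both libraries, against 37.9% of all genes, and the medians were 0.33 and 0.18. *Clpx*, a mitochondrial protein unfoldase that acts on ALAS, was at 26.7 and 30.4 FPKM at 22 °C and at 61.6 and 55.9 FPKM at 4 °C (log2 change 1.02, adjusted p = 0.0701, limma, and 0.0426 and 0.0392 with the library type as a covariate in the 4 and in all 8 libraries, within 0.0392 to 0.446 over all alternatives). *Tmem14c*, a carrier of porphyrin intermediates, had a log2 change of 0.22 in the cold (adjusted p = 0.574, limma), which turned to -0.04, -0.31 and -0.19 under the other scalings. *Alas2*, the erythroid isoform of the synthase, was at 1.88 to 9.05 FPKM in the 5 libraries in which X-linked genes have values, against 66.6 to 268 FPKM of *Alas1* in those libraries.

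Among genes of mitochondrial iron and iron-sulfur clusters, 0 of 15 passed in either comparison (6 and 0 at an unadjusted p under 0.05, against 24.5% and 14.4% of all genes). In both 4 °C libraries 9 of the 15 were higher and 2 lower, against 37.9% and 20.6% of all genes, and the medians were 0.40 in the cold and 0.04 on HFD. *Hspa9*, the mitochondrial chaperone of cluster assembly, had a log2 change of 0.84 in the cold (adjusted p = 0.189, limma), and *Iscu*, the scaffold protein, one of 0.45 (adjusted p = 0.314, limma). Over all alternatives the cold change was 0.261 to 1.163 for *Hspa9* and -0.109 to 1.165 for *Iscu*. 

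Of the genes of iron uptake, storage and export, 1 of 17 passed in the cold and 0 of 17 on HFD, beside 1.44% and 0.0684% of all genes (5 and 6 at an unadjusted p under 0.05, beside 24.5% and 14.4%), with medians of 0.20 and 0.31. In both 4 °C libraries 7 of the 17 were higher and 3 lower, against 37.9% and 20.6% of all genes. *Slc39a14*, which encodes ZIP14, a carrier of zinc and of iron not bound to transferrin, rose from 2.97 and 3.42 FPKM at 22 °C to 13.4 and 10.7 FPKM at 4 °C (log2 change 1.63 ± 0.20 SE, adjusted p = 0.0415, limma). It did not pass with no filter on low values (adjusted p = 0.244), without the intensity trend (0.0742) or with the muscle marker score (0.158, all limma). On HFD its levels were 3.26 and 3.92 FPKM against 2.85 and 2.44 FPKM on NCD (log2 change 0.33, adjusted p = 0.641, limma, and -0.03 and -0.02 after median centring and quantile normalization). The ferritin and exporter genes, named here because their hairpins were shown, had no call. *Ftl1* was at 286 and 229 FPKM at 22 °C and at 803 and 538 FPKM at 4 °C (log2 change 1.36, adjusted p = 0.0974, limma). *Fth1* was at 295 and 534 FPKM against 509 and 287 FPKM, and *Slc40a1* at 4.69 and 8.52 FPKM against 8.43 and 10.1 FPKM, with overlapping groups in both.

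**Figure D5:**
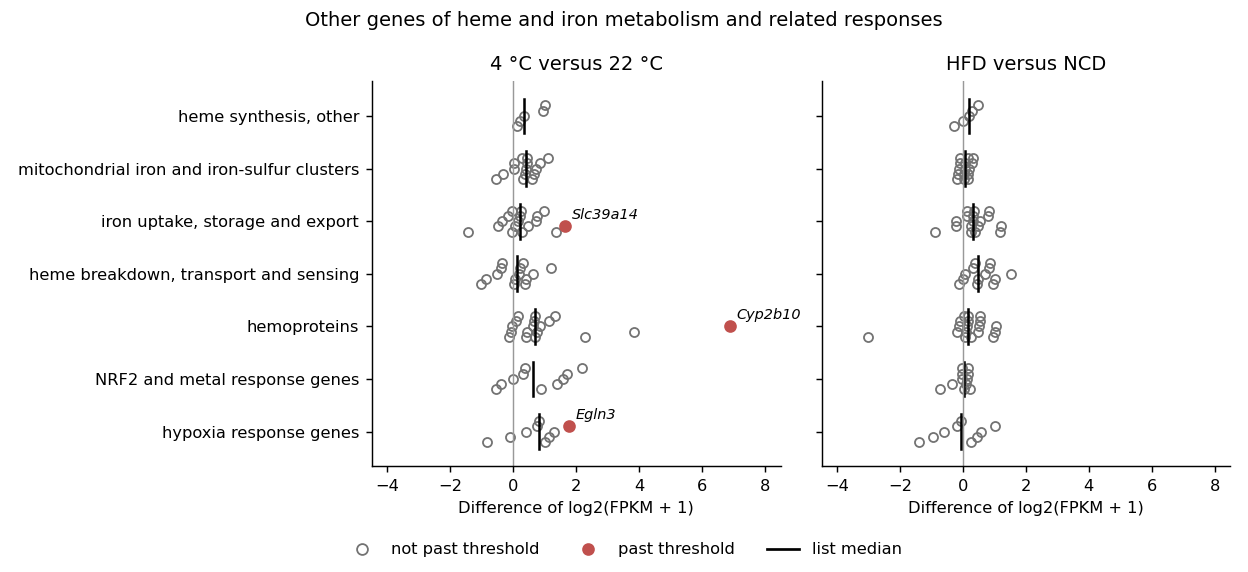
Difference of log2(FPKM + 1) (horizontal axis) of each tested gene of 7 lists (rows) for 4 °C versus 22 °C (left) and HFD versus NCD (right); filled points passed the threshold and the vertical bar is the list median. The 3 filled points, Slc39a14, Cyp2b10 and Egln3, are all in the cold panel and all to the right of 0.

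Heme breakdown, transport and sensing had no gene past threshold (0 of 14 in the cold and 0 of 13 on HFD, with 4 and 1 at an unadjusted p under 0.05, against 24.5% and 14.4% of all genes), and the medians were 0.12 and 0.46. In the cold 5 of the 14 were higher in both libraries and 3 lower in both, against 37.9% and 20.6% of all genes. *Hp*, whose product haptoglobin binds free hemoglobin, was lower in both 4 °C libraries (log2 change -0.87, adjusted p = 0.114) and higher in both HFD libraries (1.51, adjusted p = 0.422, both limma). In the cold *Hp* passed after median centring (-1.13, adjusted p = 0.0313) and rescaling (-1.28, adjusted p = 0.0399), and its log2 change was -0.03 with the muscle marker score as a covariate (adjusted p = 0.987, all limma). On HFD it passed with the library type as a covariate in the 4 libraries (adjusted p = 0.0219) and not in all 8 (0.0882), with values up to 1 elsewhere (limma). The diet change of *Hp* was 0.71 without NCD replicate 8, 2.3 without NCD replicate 6 and 0.63 with the muscle score. *Por*, the reductase that supplies heme oxygenase with electrons, was higher in both 4 °C and in both HFD libraries (log2 changes 0.36 and 0.70), but under 2 of the 3 other scalings its cold change was below 0 (-0.15 and -0.04). The hemoprotein list also held *Cox10* and *Cox15*, enzymes that make heme a, and the respiratory subunit *Uqcrh*. On this list, 1 of 18 passed in the cold and 0 of 18 on HFD, beside 1.44% and 0.0684% of all genes (8 and 4 at an unadjusted p under 0.05, beside 24.5% and 14.4%), with medians of 0.67 and 0.14. *Cyp2b10*, a cytochrome P450, rose from 0.495 and 0.399 FPKM to 115 and 249 FPKM (log2 change 6.88 ± 0.38 SE, adjusted p = 0.0176, limma), and 12 of the 18 were higher in both 4 °C libraries, against 37.9% of all genes. *Mb*, the muscle protein myoglobin, is 1 of these and moved with the muscle markers.

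*Hmox1* is known as a target of NRF2, and of 10 other genes of the NRF2 and metal response 0 passed in the cold and 0 of 11 on HFD (6 and 0 at an unadjusted p under 0.05, against 24.5% and 14.4% of all genes), with medians of 0.62 and 0.04. *Mt1* (metallothionein 1) was at 150 and 186 FPKM at 22 °C and at 635 and 481 FPKM at 4 °C (log2 change 1.72, adjusted p = 0.0584, limma), and *Txnrd1* (thioredoxin reductase 1) had a log2 change of 1.4 (adjusted p = 0.0864, limma). *Mt1* passed under 7 of the alternatives and *Txnrd1* under 2. Of 9 hypoxia response genes, a group to which *Tfrc* and *Hmox1* are also counted, 1 passed in the cold and none on HFD, again beside 1.44% and 0.0684% of all genes (7 and 5 at an unadjusted p under 0.05, beside 24.5% and 14.4%), with medians of 0.83 and -0.07. *Egln3*, a prolyl hydroxylase that is itself induced by low oxygen, rose from 1.77 and 2.62 FPKM to 10.5 and 9.04 FPKM (log2 change 1.76 ± 0.22 SE, adjusted p = 0.0415, limma). Without 4 °C replicate 2, a fit in which 1 of all genes passed, the log2 change was 1.67 for *Egln3* (adjusted p = 0.121) and 1.48 for *Slc39a14* (adjusted p = 0.119). Without 4 °C replicate 11 it was 1.86 for *Egln3* (adjusted p = 0.0535, all limma). Over all alternatives the adjusted p was 0.00111 to 0.282 for *Egln3* and 0.00559 to 0.244 for *Slc39a14*. With no filter on low values, without the intensity trend or with the muscle marker score as a covariate these genes and *Cyp2b10* did not pass either. The log2 changes were as before in the former settings and 1.81 for *Slc39a14*, 7.29 for *Cyp2b10* and 1.79 for *Egln3* with the muscle score, a fit in which 0 of all genes passed. On HFD *Egln3* was at 0.537 and 0.662 FPKM against 1.61 and 2.63 FPKM on NCD (log2 change -0.945, adjusted p = 0.169, limma). The diet change was -1.18 without NCD replicate 6 and -0.707 without NCD replicate 8. With the library type as a covariate in the 4 libraries its adjusted p was 0.0163 (limma), short of the minimum change.

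The depth behind the values was read from low genes. In single-exon genes the lowest FPKM values formed a step, taken as 1 fragment, and by that step the values of *Hmox1* rested on about 204 to 4660 fragments, those of *Cpox* on 356 to 662 and those of *Alas1* on 18700 to 78300, if all came from the longest transcript. The counting error was then at most 7.0% for *Hmox1* and 5.3% for *Cpox*. With 2 libraries per group an exact permutation test cannot go below p = 0.333, so only the moderated fit over all genes was used for calls.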

How the data were processed

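RNA of BAT was sequenced from rRNA-depleted directional paired-end libraries, 8 in 4 groups of 2. The deposited table gives FPKM per gene, made by the authors with TopHat2 and Cufflinks on GRCm38. The submitters' processing notes give TopHat2 2.0.10 and Cufflinks 2.2.1, where the study's methods name another Cufflinks version, and FastQC 0.10.1, STAR, DESeq2 and R 3.2.2 are named there too. The table holds no counts, so that the count test of the study was not repeated and exact depths are unknown. All 8 columns matched a sample. Of 49452 genes, 49109 matched GENCODE M21 for positions and biotypes. Between 23543 and 32686 genes per library were above 0.

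Autosomal genes that reached 0.1 FPKM in 2 or more compared libraries were tested with limma 3.58.1 (R 4.3.3) on log2(FPKM + 1), two-sided, with an intensity trend and Benjamini-Hochberg adjustment over all genes tested. Calls needed an adjusted p under 0.05 and a log2 change of at least 1. Fold changes on this scale understate those of low genes. The difference between both changes was a contrast over all 8 libraries. Nothing in the labels says that the libraries of a group came from separate mice, so that p-values measure only the spread between these libraries. Alternatives were another pseudocount, other filters, sex-linked and mitochondrial genes kept, 3 scalings, the satellite type and the muscle marker score as covariates, a joint fit of all groups, no trend, no minimum change, and each library left out. Values of 97.5 to 99.3% of the lowest single-exon genes lay within 10% of a common step, taken as 1 fragment.

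The 9 genes, the lists and the markers were chosen with earlier results of these data known. Named genes were the 9, list genes past threshold (otherwise 2 per list by mean FPKM), and the 5 genes most like *Alas1*, *Hmox1* and *Tfrc*. *Mb*, *Ftl1*, *Fth1*, *Slc40a1* and *Alas2* were named after their values were seen. Some list genes are counted but not reported by name here. Hepatocyte markers summed to 0.52 to 4.43 FPKM. Python 3.11.15, NumPy 2.4.6, pandas 2.3.3 and matplotlib 3.10.9 were used for tables and figures.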

Additional observations from a re-analysis of the deposited data

How the results depend on the processing

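Counts of calls (limma, Benjamini-Hochberg) moved widely with the processing. In the cold, against 252 of all genes and 3 of the pathway list genes, a pseudocount of 0.1 gave 475 and 5, no filter on low values 6 and 0, a filter at 1 FPKM 529 and 9, keeping X, Y and mitochondrial genes 920 and 14, median centring 756 and 13, quantile normalization 489 and 8, rescaling to the protein-coding sum without *Ucp1* 575 and 8, the library type as a covariate 859 and 14, a joint fit of all 8 libraries 439 and 5, the muscle marker score as a covariate 0 and 0, and no intensity trend 0 and 0. The library type in a fit of all 8 libraries, added after the data were seen, gave 869 and 15, with 1 of the 9 genes past threshold (*Hmox1*). Leaving out 1 library gave 1 to 766 of all genes, 1 to 12 pathway list genes and 0 to 1 of the 9, with the count of 1 gene without 4 °C replicate 2. On HFD, against 12 of all genes and 0 pathway list genes, no filter, keeping X-linked genes, quantile normalization, rescaling and no intensity trend gave 0 of all genes, a filter at 1 FPKM 24, median centring 45 and the muscle marker score 1. A joint fit of all 8 libraries gave 75 of all genes and 1 pathway list gene, the library type 744 and 9, with 2 of the 9 genes (*Alas1* and *Hmox1*), and the library type in a fit of all 8 libraries 439 and 4. Leaving out 1 library gave 99 to 727 of all genes, 1 to 4 pathway list genes and 0 to 1 of the 9. Without a minimum change the counts were 316 and 15 of all genes.

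Small log2 changes turned sign. In the cold, median centring gave -0.10 for *Alad*, -0.048 for *Cpox* and -0.038 for *Tmem14c*. Quantile normalization gave -0.10 for *Alas1*, -0.27 for *Alad*, -0.19 for *Urod*, -0.026 for *Fech*, -0.31 for *Tmem14c*, -0.11 for *Iscu* and -0.15 for *Por*. Rescaling gave -0.24 for *Alad*, -0.13 for *Urod*, -0.069 for *Cpox*, -0.19 for *Tmem14c* and -0.04 for *Por*. The muscle marker score gave 0.013 for *Ppox*, and satellite-low libraries alone gave 0.037 for *Tfrc*. On HFD, median centring gave -0.063 for *Alad*, -0.20 for *Cpox*, -0.34 for *Fech* and -0.027 for *Slc39a14*, quantile normalization -0.16 for *Cpox*, -0.24 for *Fech* and -0.02 for *Slc39a14*, and rescaling -0.14 for *Fech*. The muscle marker score gave -0.049 for *Alad*, -0.015 for *Cpox*, -0.41 for *Fech* and -0.01 for *Ppox*. Satellite-high libraries alone gave 0.063 for *Urod*, and satellite-low libraries alone -0.073 for *Fech* and -0.091 for *Tfrc*. Leaving out 1 library gave ranges on HFD of -0.013 to 0.32 for *Cpox*, -0.27 to 0.31 for *Fech*, -0.10 to 0.95 for *Tfrc*, -0.56 to 0.45 for *Urod* and -0.64 to 0.13 for *Uros*. For the cold change minus the diet change, rescaling gave -0.11 for *Cpox*, and leaving out 1 library gave ranges of -0.35 to 0.068 for *Alad*, -0.12 to 0.23 for *Cpox*, -0.33 to 1.67 for *Hmox1* and -0.18 to 0.83 for *Urod*. *Hmox1* stayed above 0 in both comparisons and *Uros* in the cold under every alternative. Of the tested alternative values of single genes, 602 kept their sign and side of the threshold, 45 turned sign, 22 gained a call and 12 lost one. Of the 36 differences within a library type, which have no test, 32 kept their sign and 4 turned it. The causes of these changes were not tested. No pairing by replicate number was possible because the 22 °C and 4 °C groups share no replicate number and the diet groups share only number 6. The library type, which each group holds in both forms, was the only pairing that could be fitted, and its values are those of the covariate above. With 2 libraries per group the spread is estimated from few values, and depth, at 204 or more fragments behind a level, limits the 9 genes less.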
